A study of Mus musculus with 6 samples.

Results

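The genes described here are Nr3c1, which encodes the glucocorticoid receptor, and 6 genes of its action in liver: Hsd11b1, Tsc22d3, Fkbp5, Sgk1, Tat and Zbtb16. They were matched by gene symbol, and all 7 were among the 22599 symbols of the deposited tables. All 7 also passed the filter on low counts that kept 13205 genes for testing. Bulk RNA sequencing of mouse liver covered 3 libraries from NcoR1ΔHep mice, labelled as knockdown of NcoR1, and in 3 from mice with floxed NcoR1 alleles, labelled wild type. NcoR1 is a nuclear receptor corepressor that holds target genes silent, and the series asks how its loss from hepatocytes bears on liver ischemia-reperfusion injury. The titles of all 6 libraries give 0 h, and the treatment label of both groups names liver ischemia-reperfusion, so it is not known whether these livers were operated on. The labels give no strain, age or sex, do not name the Cre line or its promoter, and leave it unsaid whether every library is a mouse of its own. The p-values therefore measure only the spread between these libraries, which may in part be technical. The mice had free access to chow under equal hours of light and dark, and the time of day of sampling is not given in the sources used here.

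Glucocorticoids, mainly corticosterone in mice, are adrenal steroids whose blood level follows the time of day and rises with stress and fasting. Without hormone the receptor waits in the cytoplasm in a complex with Hsp90 and co-chaperones. With hormone it enters the nucleus and binds paired half-sites in DNA, raising some genes and lowering inflammatory ones. In liver it is best known for inducing enzymes of amino acid breakdown and gluconeogenesis. The amount of hormone that reaches it also depends on Hsd11b1, an enzyme of the endoplasmic reticulum that regenerates active corticosterone from its inert ketone form.

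The DNA upstream of the members is shown first for Sgk1 and Tat, because these were the members whose groups did not overlap. RefSeq (GRCm38.p6) gave windows of 250 bases before a transcript start for 5 members, 12 windows in all, since Sgk1 has 6 annotated starts and Tsc22d3 has 3. They were searched on both strands for the receptor's palindrome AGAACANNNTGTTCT and for its half-site, AGAACA or TGTTCT, which the palindrome contains at each end. The palindrome occurred in 3 of 32851 such windows over all genes (0.00913%), and 1 of these belonged to Sgk1. The half-site was in 4 of the members' 12 windows, against 16.1% of all windows. Sgk1 alone gave 3 of these 4, from its 6 windows, and Tsc22d3 gave 1. Hsd11b1, Fkbp5 and Tat had 0, so the count rests mostly on 1 gene with many annotated starts. The windows below have half-sites in capitals.
Sgk1, chr10:21993640-21993889, plus strand, ending just before the start at 21993890: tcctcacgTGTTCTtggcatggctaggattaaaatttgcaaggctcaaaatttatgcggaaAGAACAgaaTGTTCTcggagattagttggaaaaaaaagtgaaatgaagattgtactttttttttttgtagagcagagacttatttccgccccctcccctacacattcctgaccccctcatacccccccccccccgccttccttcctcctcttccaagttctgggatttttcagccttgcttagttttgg
Tat, chr8:109990186-109990435, plus strand: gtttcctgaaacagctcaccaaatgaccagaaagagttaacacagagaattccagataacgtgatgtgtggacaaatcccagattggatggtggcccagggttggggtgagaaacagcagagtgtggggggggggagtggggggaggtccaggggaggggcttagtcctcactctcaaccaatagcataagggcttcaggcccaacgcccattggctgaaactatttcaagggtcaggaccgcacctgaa
Tsc22d3, chrX:140600693-140600716, minus strand, around the half-site before its start at 140600522: cattcgacaTGTTCTaagttctga

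In Sgk1 the palindrome spelled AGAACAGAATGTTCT, began 189 bases before that start and lay at chr10:21993701-21993715. A further half-site lay 242 bases before the start. Windows of 2 other Sgk1 starts held a single half-site each. The Tat window held none of these letters. In rat, the receptor's known sites at Tat lie farther upstream than this window reaches. The single Tsc22d3 half-site lay 185 bases before its start. The palindrome windows outside Sgk1 belonged to Acnat2 and Gm35041. Acnat2 was at 31.6, 7.23 and 5.25 FPKM in NcoR1ΔHep and 6.01, 9.18 and 8.18 FPKM in flox, so its groups overlapped. Gm35041 was not among the deposited symbols. Such matches describe letters only, and the files hold no measurement of receptor binding.

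Total counts ran from 37308379 to 37474365 in NcoR1ΔHep and from 36975231 to 38470468 in flox, so depth hardly differed. The hepatocyte gene Alb took 6.96% to 7.68% of the counts in NcoR1ΔHep and 6.56% to 8.85% in flox. Ncor1, the targeted gene, was at 5.34, 6.63 and 4.93 FPKM in NcoR1ΔHep 1, 2 and 3, and at 6.78, 6.70 and 7.72 FPKM in flox 1, 2 and 3. Its means were 5.63 ± 0.886 FPKM in NcoR1ΔHep and 7.07 ± 0.570 FPKM in flox (SD, n = 3 each), a difference that did not pass (edgeR adjusted p = 0.931), so the genotypes rest on the labels. One library stood apart: NcoR1ΔHep 1 had 17138 counts of Xist and 20 counts over 4 Y-linked genes, where the other 5 libraries had 6 to 18 and 4174 to 10122. By these transcripts NcoR1ΔHep 1 was female and the other 5 libraries male, so only the NcoR1ΔHep group mixed the sexes. The part of sex in values that peak in NcoR1ΔHep 1 was not tested. In flox 1 and flox 2 the clock gene Dbp was at 0.948 and 3.76 FPKM, against 37.6 to 92.6 FPKM in the other 4 libraries. FPKM is the authors' count per gene length and library total, fold changes are edgeR's log2 values with flox as the denominator, and tests are two-sided and adjusted over all 13205 genes. In bulk tissue, fewer cells of a type and less RNA per cell cannot be told apart.

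None of the 7 members passed the adjusted threshold of 0.05 in edgeR, nor did any of the 13205 genes tested (0%). By DESeq2, which called 5 genes (0.0246%), and by limma-voom, the count of members called was also 0. With an unadjusted p under 0.05 there were 2 members in edgeR and the same number in DESeq2, both higher in NcoR1ΔHep. Of all tested genes, 3.35% met this in edgeR in either direction, 1.43% as higher and 1.92% as lower, and 3.02% in DESeq2. They were Sgk1 and Tat. The same pair were higher in every NcoR1ΔHep library than in every flox library, which 2.61% of tested genes were. No member was lower in every NcoR1ΔHep library, against 4.95% of tested genes, and 7.56% did not overlap in either direction. Fold changes were positive in 6 of the 7, with a median of 0.49 where the median of all tested genes was 0.03. They were positive in 7069 of all 13205 tested genes.

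**Figure D1:**
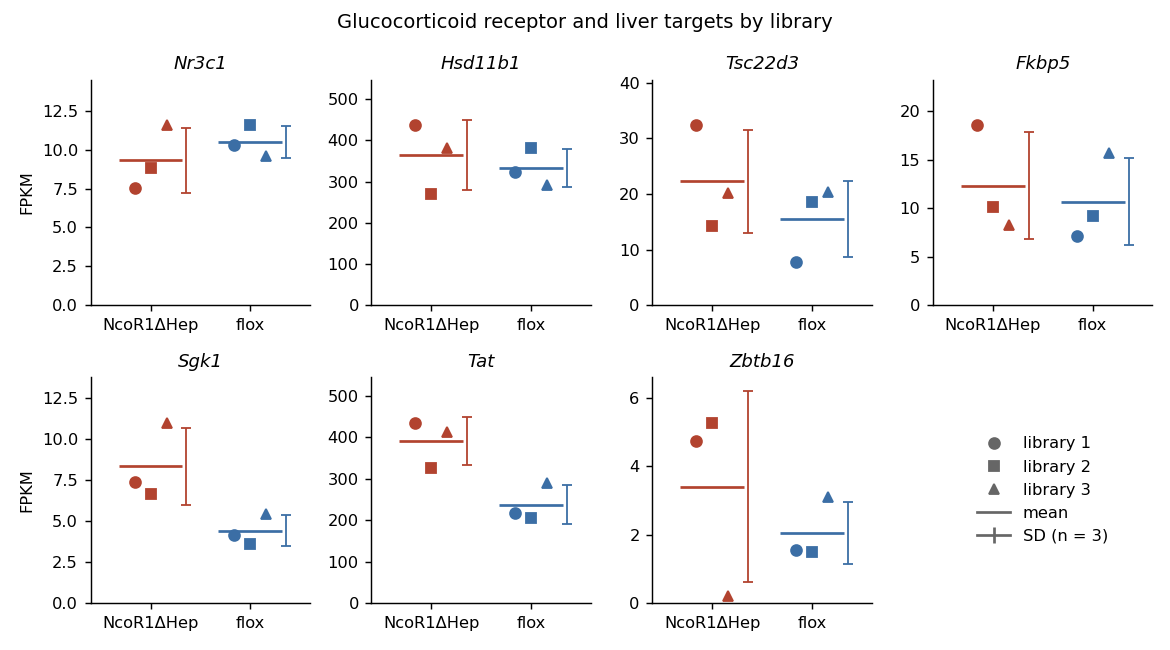
FPKM of the 7 genes in each library, NcoR1ΔHep left and flox right, with the symbol giving the library number, a line at the mean and a bar for the SD of 3 libraries. Sgk1 and Tat are the genes whose groups do not overlap, and Zbtb16 spans 0.196 to 5.28 FPKM within NcoR1ΔHep.

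The receptor gene itself had a small fold change with a wide interval. Nr3c1 (chromosome 18, 39410545 to 39519421, GRCm38, minus strand) was at 7.55, 8.80 and 11.6 FPKM in NcoR1ΔHep 1, 2 and 3, and at 10.3, 11.6 and 9.57 FPKM in flox 1, 2 and 3. The groups overlapped, with NcoR1ΔHep 1 lowest and NcoR1ΔHep 3 and flox 2 level at the top. Its log2 fold change was -0.13 (SE 0.27, 95% interval -0.76 to 0.50, edgeR adjusted p = 0.959). Changes of either sign within that interval are compatible with these libraries. Its sign was positive without NcoR1ΔHep 1 (0.06) or flox 2 (0.01). Nr3c2, which encodes the mineralocorticoid receptor that also binds corticosterone, was far scarcer at 1.01, 2.21 and 1.85 FPKM in NcoR1ΔHep and 1.44, 1.47 and 1.24 FPKM in flox.

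Genes that set how much hormone reaches the receptor did not move as 1 group. Hsd11b1 (chromosome 1, 193221634 to 193264075, minus strand) was at 438, 271 and 382 FPKM in NcoR1ΔHep 1, 2 and 3, and at 324, 382 and 292 FPKM in flox 1, 2 and 3. NcoR1ΔHep held both the highest and the lowest value. The log2 fold change was 0.14 (SE 0.27, 95% interval -0.49 to 0.77, edgeR adjusted p = 0.956). Lamb3, which overlaps it on the other strand, had at most 114 counts in a library, against at least 16700 for Hsd11b1.

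H6pd, the enzyme that supplies Hsd11b1 with NADPH inside the endoplasmic reticulum, was at 25.0, 40.3 and 31.8 FPKM in NcoR1ΔHep, against 59.1, 53.8 and 46.5 FPKM in flox. Every NcoR1ΔHep library was below every flox library, which 4.95% of tested genes were, but the difference did not pass. Its means were 32.4 ± 7.64 FPKM in NcoR1ΔHep and 53.1 ± 6.35 FPKM in flox (SD, n = 3 each), with a log2 fold change of -0.68 (SE 0.26, edgeR unadjusted p = 0.0291, adjusted p = 0.931). It lay between -0.85 and -0.47 when single libraries were left out.

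Serpina6, which encodes the corticosteroid-binding globulin of blood, was at 552, 125 and 161 FPKM in NcoR1ΔHep, against 102, 107 and 137 FPKM in flox. The high value came from NcoR1ΔHep 1, the library with Xist counts, and the other 2 NcoR1ΔHep libraries were near flox. Its log2 fold change of 1.24 (SE 0.51, edgeR adjusted p = 0.931) was 0.41 without that library, and the part of the sex-linked difference in it was not tested. Abcb1a, an efflux pump that carries steroids, was the third gene named from this list, at 0.670, 0.461 and 0.357 FPKM in NcoR1ΔHep and 0.229, 0.261 and 0.366 FPKM in flox. Hsd11b2, which inactivates corticosterone in kidney, had 0 counts in all 6 libraries, which allows up to 3 counts in each. Of 13 tested genes of steroid metabolism and transport, 7 had positive and 6 negative fold changes, with a median of 0.03 (-0.22 without NcoR1ΔHep 3, -0.10 without flox 1, and 0.28 without NcoR1ΔHep 1 or flox 2). In edgeR 0 passed, and 2 had an unadjusted p under 0.05 (3.35% of all tested genes, in either direction).

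**Figure D2:**
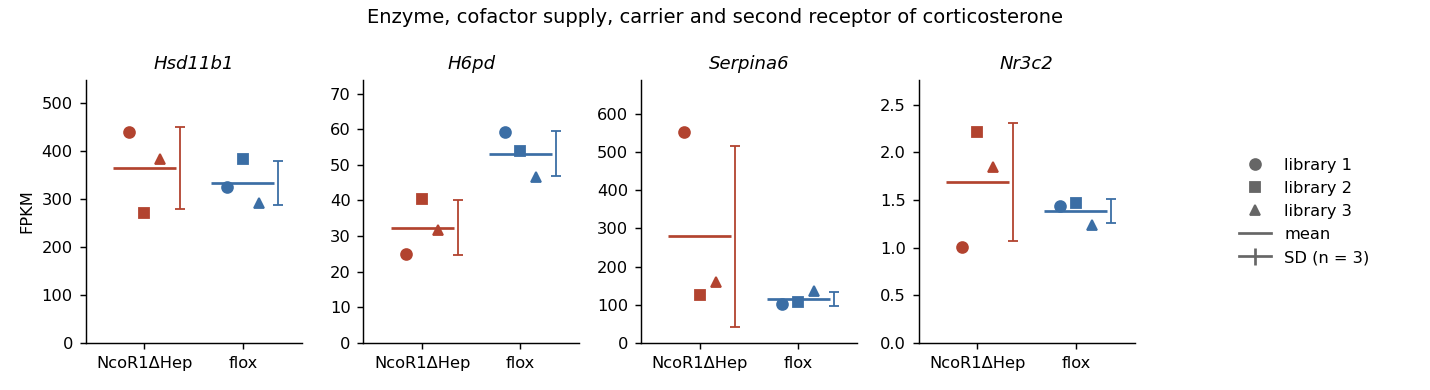
FPKM of Hsd11b1, H6pd, Serpina6 and Nr3c2 in each library, NcoR1ΔHep left and flox right, with a line at the mean and a bar for the SD of 3 libraries. H6pd separates the groups, and Serpina6 is high in NcoR1ΔHep 1 (552 FPKM).

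Fkbp5 encodes a co-chaperone that lowers the receptor's affinity for hormone and is itself induced by the receptor, a negative feedback loop. Fkbp5 (chromosome 17, 28399094 to 28517527, minus strand) was at 18.6, 10.1 and 8.29 FPKM in NcoR1ΔHep 1, 2 and 3, and at 7.14, 9.16 and 15.7 FPKM in flox 1, 2 and 3. Each group held 1 library well above its other 2, NcoR1ΔHep 1 and flox 3. For Fkbp5 the log2 fold change was 0.18 (SE 0.38, 95% interval -0.69 to 1.06, edgeR adjusted p = 0.959), and it turned negative without NcoR1ΔHep 1 (-0.14) or flox 1 (-0.07). Among 16 other chaperones of the receptor complex, 5 had positive and 11 negative fold changes, with a median of -0.11 (-0.02 without NcoR1ΔHep 2 or flox 3, and down to -0.15 without others), and 0 passed in edgeR, with 0 at an unadjusted p under 0.05. Hsp90aa1, the inducible Hsp90, was at 20.5, 24.1 and 40.3 FPKM in NcoR1ΔHep, against 58.1, 53.4 and 32.6 FPKM in flox. Stip1, which links Hsp70 to Hsp90, was at 30.7, 32.3 and 23.8 FPKM in NcoR1ΔHep and 44.3, 30.5 and 38.3 FPKM in flox. Hspa1a was below 1 FPKM throughout, at 0.200, 0.345 and 0.220 FPKM in NcoR1ΔHep and 0.753, 0.149 and 0.773 FPKM in flox.

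Tsc22d3, also called Gilz, encodes a leucine zipper protein that the receptor induces and that restrains inflammatory transcription factors. Tsc22d3 (chromosome X, 140539528 to 140600659, minus strand) was at 32.4, 14.2 and 20.1 FPKM in NcoR1ΔHep 1, 2 and 3, and at 7.68, 18.5 and 20.3 FPKM in flox 1, 2 and 3. The groups overlapped: NcoR1ΔHep 1 was high, flox 1 was low, and the other 4 libraries lay between 14.2 and 20.3 FPKM. The log2 fold change of 0.49 (SE 0.44, 95% interval -0.52 to 1.51, edgeR adjusted p = 0.931) was 0.23 without NcoR1ΔHep 1 and 0.14 without flox 1. Lymphocytes also express this gene. Of 9 markers of T, NK and B cells, 7 had positive fold changes. Their median of 0.18 was -0.27 without NcoR1ΔHep 1, and their summed level was 3.66 to 7.57 CPM in NcoR1ΔHep and 4.34 to 5.49 CPM in flox, highest in NcoR1ΔHep 1. Their part in the Tsc22d3 values was not tested.

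Sgk1 encodes a kinase that the receptor, insulin signalling and serum induce, known for raising sodium transport and cell survival. Sgk1 (chromosome 10, 21882184 to 21999903, plus strand) was at 7.35, 6.63 and 11 FPKM in NcoR1ΔHep 1, 2 and 3, and at 4.15, 3.61 and 5.44 FPKM in flox 1, 2 and 3. All 3 NcoR1ΔHep libraries were above all 3 flox libraries, also when scaled by TMM, and NcoR1ΔHep 3 was highest. Counts of 1029 to 1700 in NcoR1ΔHep and 577 to 837 in flox stood behind these values. The means were 8.31 ± 2.32 FPKM in NcoR1ΔHep and 4.40 ± 0.943 FPKM in flox (SD, n = 3 each), a ratio of 1.89. For Sgk1 the log2 fold change was 0.96 (SE 0.30, 95% interval 0.26 to 1.66, edgeR unadjusted p = 0.0129, adjusted p = 0.931), and 57 of 13205 genes, itself included, had a p as small. With single libraries left out the unadjusted p ran from 0.00967 to 0.0532, the highest without flox 1. The log2 fold change was 0.61 without NcoR1ΔHep 3 and at most 1.16 when any other library was left out. The counts join all annotated starts, so they do not show which start was used.

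Sgk1 is also expressed outside hepatocytes. Of 15 markers of sinusoidal endothelial cells, 14 had negative fold changes, with a median of -0.65 (-0.30 without flox 1 and -1.02 without NcoR1ΔHep 1). In edgeR 0 passed, and 3 had an unadjusted p under 0.05, all as lower (1.92% of all tested genes). The summed level of these markers was 212 to 405 CPM in NcoR1ΔHep and 307 to 677 CPM in flox, and none was at 0. These sums overlapped between the groups, with flox 1 highest. NcoR1ΔHep 3, with the highest Sgk1, had the lowest mean level of these markers. Immediate early genes, which serum induces as it does Sgk1, had positive fold changes in 14 of 19, with a median of 0.59 (0.07 without NcoR1ΔHep 2, 0.18 without flox 2 and 1.11 without flox 3). In edgeR 0 passed, and 1 had an unadjusted p under 0.05 (3.35% of all tested genes, in either direction). That gene was Sik1, a kinase of cAMP and stress signalling, at 4.81, 3.06 and 5.73 FPKM in NcoR1ΔHep and 1.13, 0.725 and 3.20 FPKM in flox. The list's mean level was 0.46, 1.01 and -0.57 in NcoR1ΔHep 1, 2 and 3, and -0.37, -1.23 and 0.70 in flox 1, 2 and 3. The part of either group in the Sgk1 values was not tested.

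Tat encodes tyrosine aminotransferase, the first enzyme of tyrosine breakdown and a classical glucocorticoid-induced gene of hepatocytes. Tat (chromosome 8, 109990437 to 109999803, plus strand) was at 436, 326 and 413 FPKM in NcoR1ΔHep 1, 2 and 3, and at 217, 205 and 291 FPKM in flox 1, 2 and 3. The groups did not overlap, also when scaled by TMM, with flox 3 the nearest to NcoR1ΔHep. The means were 392 ± 57.6 FPKM in NcoR1ΔHep and 238 ± 46.4 FPKM in flox (SD, n = 3 each), a ratio of 1.65. For Tat the log2 fold change was 0.74 (SE 0.27, 95% interval 0.13 to 1.35, edgeR unadjusted p = 0.0235, adjusted p = 0.931), and 145 genes, itself included, had a p as small. With single libraries left out the unadjusted p ran from 0.0159 to 0.0856, and was above 0.05 without NcoR1ΔHep 3, flox 1 or flox 2. The log2 fold change ran from 0.61 to 0.93 when single libraries were left out, and was 0.74 without NcoR1ΔHep 1.

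The rest of the tyrosine pathway had smaller fold changes than Tat. Of 7 genes, 5 had positive and 2 negative fold changes, with a median of 0.28 (0.05 without NcoR1ΔHep 1, 0.17 without flox 1 and at most 0.46 without any other library), and 0 passed in edgeR, with 0 at an unadjusted p under 0.05. Qdpr and Pcbd1, which recycle the cofactor tetrahydrobiopterin, were highest in NcoR1ΔHep 1, at 472 and 516 FPKM. In the other libraries Qdpr was at 301 and 289 FPKM in NcoR1ΔHep, against 254, 256 and 318 FPKM in flox, and Pcbd1 at 277 and 268 FPKM in NcoR1ΔHep, against 266, 263 and 309 FPKM in flox.

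Zbtb16, also called PLZF, encodes a zinc finger repressor that glucocorticoids induce in several tissues, and it varied the most of the 7 genes. Zbtb16 (chromosome 9, 48654297 to 48836222, minus strand) was at 4.73, 5.28 and 0.196 FPKM in NcoR1ΔHep 1, 2 and 3, and at 1.56, 1.48 and 3.09 FPKM in flox 1, 2 and 3. NcoR1ΔHep held the 2 highest libraries and the lowest, 26.9-fold apart, while flox spanned 2.09-fold. The lowest value rested on 60 counts (95% Poisson interval 45.8 to 77.2, counting error only), against 1454 and 1615 counts in NcoR1ΔHep 1 and 2 and 468 to 938 in flox. The log2 fold change of 0.68 (SE 0.87, 95% interval -1.31 to 2.68, edgeR adjusted p = 0.940) was 1.23 without NcoR1ΔHep 3 (SE 0.36, unadjusted p = 0.00948, adjusted p = 0.626). It was -0.12 by limma-voom and -0.04 by limma on log2(FPKM + 0.1), so its direction depended on the method used. Its SD within groups, 1.63 on log2(CPM + 1), was at percentile 99.6 of the tested genes, whose median was 0.30. Tsc22d3 (0.73, percentile 95.4) and Fkbp5 (0.57, percentile 88.7) also varied widely within groups, and Tat did not (0.28, percentile 46.9).

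**Figure D3:**
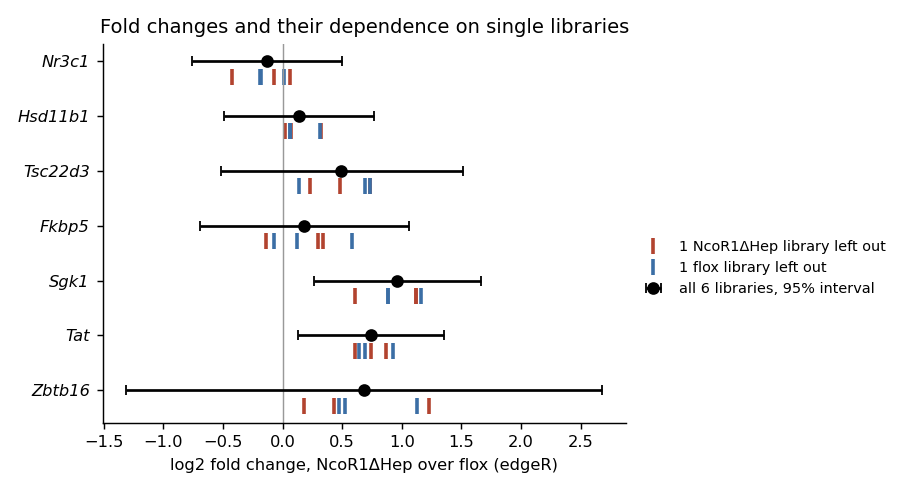
Log2 fold change of each gene, NcoR1ΔHep over flox, with its 95% interval from edgeR (black) and the value when 1 NcoR1ΔHep library (red) or 1 flox library (blue) is left out. Sgk1 and Tat stay above 0 without any single library, and Zbtb16 ranges from 0.18 to 1.23.

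Across libraries the 7 genes did not follow 1 order. On the TMM scale NcoR1ΔHep 3 had the highest level of 4 members (Nr3c1, Hsd11b1, Sgk1 and Tat), while it had the lowest Zbtb16. By FPKM, without TMM factors, it was highest for 2 members and NcoR1ΔHep 1 for 4. On the TMM scale flox 1 had the lowest level of 4 members (Tsc22d3, Fkbp5, Sgk1 and Tat), and no flox library was highest for any member on either scale. Fkbp5 and Zbtb16 had their 3 highest libraries in common, NcoR1ΔHep 1, NcoR1ΔHep 2 and flox 3. For Fkbp5, however, NcoR1ΔHep 2 was barely above flox 2 (38.8 against 38.1 CPM on the TMM scale). NcoR1ΔHep 1, NcoR1ΔHep 2 and flox 3 also had the highest mean level of the other glucocorticoid-induced genes, so this split crossed the genotypes.

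**Figure D4:**
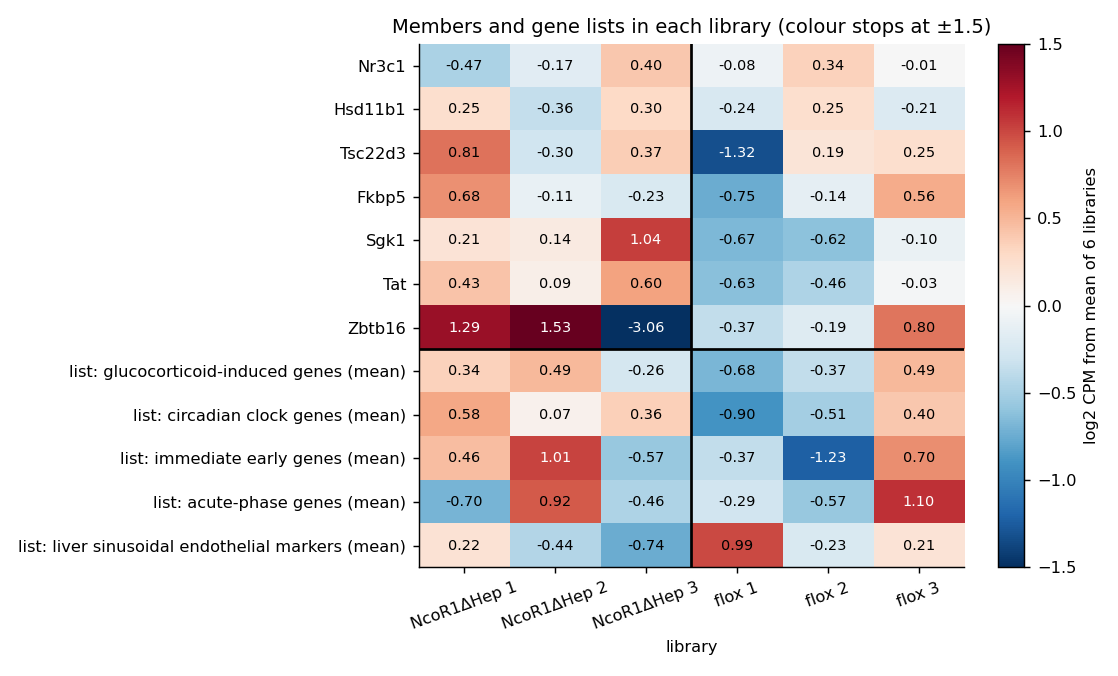
Level of each gene (upper rows) and mean level of 5 gene lists (lower rows) in each library, as the deviation of log2 CPM from the 6-library mean, NcoR1ΔHep left and flox right. Flox 1 is low for Tsc22d3 (-1.32) and for the mean of the clock list (-0.90), and NcoR1ΔHep 3 is low for Zbtb16 (-3.06) while high for Sgk1 (1.04).

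Other genes that glucocorticoids induce had mostly positive fold changes, none of which passed. Of all 13205 tested genes, 7069 had positive fold changes. Of 29 tested, 21 had positive and 8 negative fold changes, with a median of 0.32 (0.22 to 0.62 when single libraries were left out), and 0 passed in edgeR, with 0 at an unadjusted p under 0.05. Their mean level was 0.34, 0.49 and -0.26 in NcoR1ΔHep 1, 2 and 3, and -0.68, -0.37 and 0.49 in flox 1, 2 and 3, as deviations of log2 CPM from the 6-library mean. The groups overlapped, with flox 3 as high as NcoR1ΔHep 2.

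The metallothionein gene Mt1 had the smallest p of that list, at 109, 29.4 and 7.05 FPKM in NcoR1ΔHep and 5.25, 8.06 and 23.1 FPKM in flox. Its log2 fold change of 1.92 (SE 0.90, edgeR adjusted p = 0.931) was 0.61 without NcoR1ΔHep 1. Sds, the serine dehydratase of gluconeogenesis, was at 153, 81.0 and 69.9 FPKM in NcoR1ΔHep and 52.4, 60.3 and 83.9 FPKM in flox. Here too NcoR1ΔHep 1 stood above the rest, and without it the log2 fold change was 0.28 in place of 0.61. Klf15, a transcription factor of amino acid breakdown, was at 20.1, 16 and 15.8 FPKM in NcoR1ΔHep and 11, 12.8 and 15.2 FPKM in flox. It was the 1 gene of the list whose groups did not overlap, by a margin of less than 1 FPKM, where 2.61% of all tested genes were higher in every NcoR1ΔHep library, with a log2 fold change of 0.41 (SE 0.23, edgeR adjusted p = 0.931).

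**Figure D5:**
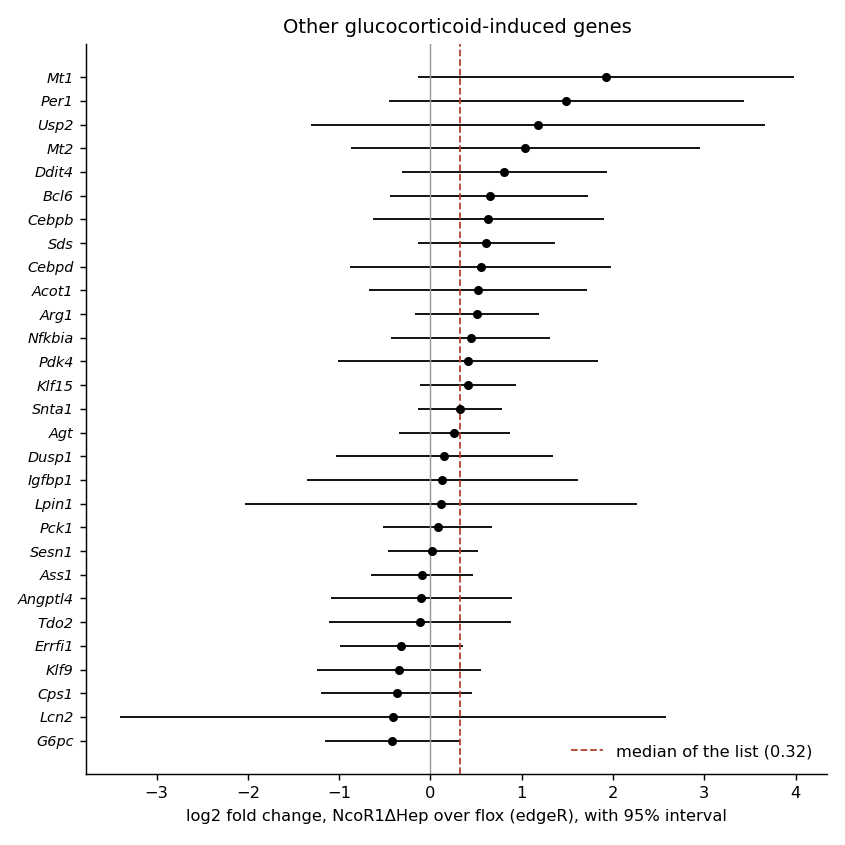
Log2 fold change, NcoR1ΔHep over flox, of the 29 other glucocorticoid-induced genes tested, with 95% intervals from edgeR. The dashed line is the list's median of 0.32, and every interval includes 0.

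Clock genes, whose products set daily rhythms in liver, differed between libraries in opposite directions. The list holds genes of opposite phase, so its mean level describes no single gene. Of 15 tested, 12 had positive and 3 negative fold changes, with a median of 0.38 (0.24 without NcoR1ΔHep 3 and 0.62 without flox 3). In edgeR 0 passed, and 1 had an unadjusted p under 0.05 (3.35% of all tested genes, in either direction). Their mean level was 0.58, 0.07 and 0.36 in NcoR1ΔHep 1, 2 and 3, and -0.90, -0.51 and 0.40 in flox 1, 2 and 3. By this mean flox 1 and flox 2 were the lowest libraries, as they were for Sgk1 and Tat, and Dbp and Per3 were lowest there too. Arntl, Nfil3 and Clock were instead highest in flox 1 and flox 2. Arntl, the clock activator that peaks opposite to Dbp, was at 0.0305, 0.109 and 0.0709 FPKM in NcoR1ΔHep, against 1.29, 0.702 and 0.0983 FPKM in flox (edgeR adjusted p = 0.931, DESeq2 adjusted p = 0.0317). Nfil3, a repressor of the same loop, was at 3.0, 4.68 and 1.27 FPKM in NcoR1ΔHep and 10.1, 5.08 and 3.69 FPKM in flox, and Per3 at 7.14, 1.73 and 1.49 FPKM in NcoR1ΔHep and 0.135, 0.267 and 2.14 FPKM in flox. In flox 3, whose Dbp (47.2 FPKM) was within the NcoR1ΔHep range, Sgk1 and Tat were the highest of flox, at 5.44 and 291 FPKM. The lowest NcoR1ΔHep values were 6.63 FPKM for Sgk1 and 326 FPKM for Tat. The part of the clock difference in the Sgk1 and Tat values was not tested.

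Genes that glucocorticoids repress divided evenly. Of 16, 10 were abundant enough to test, and 5 had positive and 5 negative fold changes, with a median of -0.05 (-0.47 without NcoR1ΔHep 2 and 0.31 without flox 3), and 0 passed in edgeR, with 0 at an unadjusted p under 0.05. Irf1, an interferon-responsive factor, was at 10.1, 4.74 and 5.45 FPKM in NcoR1ΔHep and 6.0, 4.15 and 4.29 FPKM in flox, high in NcoR1ΔHep 1. The cytokine gene Il1a was at 2.28, 2.25 and 2.08 FPKM in NcoR1ΔHep and 3.51, 1.80 and 4.52 FPKM in flox. Mmp9, a matrix protease, was at most 0.248 FPKM in any library. Il6, Tnf, Cxcl2, Nos2, Ptgs2 and Sele were too low to test.

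Among 15 coregulators of nuclear receptors, Ncor1 included, 8 had positive and 7 negative fold changes, with a median of 0.10 (-0.07 without flox 3, -0.05 without NcoR1ΔHep 3 and at most 0.13 otherwise), and 0 passed in edgeR, with 0 at an unadjusted p under 0.05. Carm1, a methyltransferase that assists the receptor, was at 6.82, 4.51 and 3.84 FPKM in NcoR1ΔHep and 4.14, 3.04 and 3.96 FPKM in flox. Smarca4, the ATPase of a chromatin remodeller, was at 3.94, 3.56 and 2.83 FPKM in NcoR1ΔHep and 5.35, 3.84 and 4.14 FPKM in flox. The histone acetyltransferase gene Crebbp was at 2.09, 1.42 and 1.35 FPKM in NcoR1ΔHep and 1.33, 1.20 and 1.33 FPKM in flox. Its groups did not overlap, by a margin of less than 0.1 FPKM. When scaled by TMM, Carm1 was higher and Smarca4 lower in every NcoR1ΔHep library, though both overlapped by FPKM. In the same list Ncor1 and Ncoa1 were lower in every NcoR1ΔHep library by FPKM but overlapped when scaled by TMM. That made 3 of 15 without overlap by FPKM, where 7.56% of all tested genes had none in either direction.

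The levels of the members, per gene length, ran from Hsd11b1 (348 FPKM over all 6 libraries) and Tat (315) through Tsc22d3 (18.9), Fkbp5 (11.5), Nr3c1 (9.90) and Sgk1 (6.36) to Zbtb16 (2.72). The ranges of Hsd11b1 and Tat overlapped, as did those of each pair of neighbours from Tsc22d3 down, while Tat and Tsc22d3 were separate. Fkbp5 was above Nr3c1 in 3 of 6 libraries, and Hsd11b1 above Tat in 4 of 6. The order depends on the lengths used. The authors' count and FPKM imply a length of 1651 bases for Hsd11b1 and 3216 for Tat, and the union of exons in GENCODE M21 is 4251 and 2405 bases. With the GENCODE lengths, tried after the data were seen, Tat (421) came before Hsd11b1 (135), and Fkbp5 (4.72) came after Nr3c1 (11.3) and Sgk1 (5.39).

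The genes whose levels were most like each member across the 6 libraries were taken among 9063 tested genes with a mean of at least 1 FPKM, by Pearson r on log2(CPM + 1). With 6 libraries and this many genes, high values arise readily: between 57 genes for Sgk1 and 619 for Nr3c1 had r above 0.9, and all share the same libraries. Sgk1 was most like Msmo1 (r = 0.996, Spearman rho 0.94), an enzyme of cholesterol synthesis, and Kank2 (r = 0.991, rho 0.94). Tat was most like Kdelr2 (r = 0.994, rho 1.0) and Mpzl2 (r = 0.984, rho 1.0). Both pairs were higher in every NcoR1ΔHep library than in every flox library, as 2.61% of tested genes were. That follows largely from picking genes that resemble Sgk1 and Tat in these same libraries, so it adds nothing to them. Nr3c1 was most like Myo6 (r = 0.997, rho 1.0) and Slc25a13 (r = 0.996, rho 1.0), the mitochondrial aspartate and glutamate carrier. Hsd11b1 was most like Rfx7 (r = 0.992, rho 1.0) and Mccc2 (r = 0.990, rho 0.89). Tsc22d3 was most like the cytochrome genes Cyp2a12 (r = 0.996, rho 0.94) and Cyp3a25 (r = 0.982, rho 0.94). Fkbp5 was most like Gm16174 (r = 0.986, rho 0.94) and Psme3ip1 (r = 0.980, rho 0.94). Zbtb16 was most like Rhbdd3 (r = 0.994, rho 0.94) and AB124611 (r = 0.992, rho 0.94).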

How the data were processed

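Liver RNA of 6 libraries, 3 NcoR1ΔHep and 3 flox, was analysed. Per the labels' protocols, column-purified total RNA went into libraries made with a SMARTer mRNA kit. The deposited count table holds raw read counts per gene symbol, and the deposited FPKM table holds the same counts scaled by the authors by gene length and library total. The submitters' processing notes name GRCm38, mm10 and hg38 without a role. The sources used here give no aligner, counter or strand setting, so reads of overlapping genes on opposite strands cannot be told apart. Positions are those of GENCODE M21 (GRCm38), and promoters those of RefSeq.

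Counts were filtered with filterByExpr (minimum count 10, minimum total 15) and tested with edgeR 4.0.16 (R 4.3.3) by the quasi-likelihood test with TMM factors. P-values were adjusted by Benjamini-Hochberg over 13205 genes with a threshold of 0.05. DESeq2 1.42.0 and limma 3.58.1 (voom, and log2(FPKM + 1)) served as alternatives. Standard errors are the log2 fold change divided by the square root of F. The edgeR step was tested on simulated data.

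The 7 members and all gene lists were chosen with earlier results of these data known. Named beyond the members were Ncor1, sex-linked genes, Dbp, Arntl, Saa1, Fos, Egr1, up to 3 genes of smallest p in each list and the 2 genes most like each member. Lists are described by counts and medians, and levels of lists use TMM-scaled CPM. The values of 1 gene that this rule names are not reported here.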

Additional observations from a re-analysis of the deposited data

How the results depend on the processing

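No member passed the adjusted threshold under any of the 18 alternatives, and the number of genes called was 0 in each but DESeq2, which called 5. Leaving out each library in turn gave 0 genes and 0 members each time. Sgk1 and Tat kept a positive fold change under all 18 (0.61 to 1.16 and 0.61 to 0.93), as did Hsd11b1 (0.02 to 0.32) and Tsc22d3 (0.14 to 0.73). With single libraries left out, Nr3c1 ran from -0.42 to 0.06 and Fkbp5 from -0.14 to 0.58. Zbtb16 was -0.12 by limma-voom and -0.04 by limma on log2(FPKM + 0.1). The cause was not tested. The labels do not say whether equal replicate numbers mark pairs. Deviations of equally numbered libraries from their group means correlated at 0.02, -0.33 and -0.47, and those of unequally numbered libraries at -0.24 to 0.56. With 3 libraries per group such values cannot decide whether the numbers mark pairs. With the replicate number as a block, 0 genes and 0 members passed, and Tat had an unadjusted p of 0.0549. Every member had at least 60 counts in every library, so counting error was small beside the spread between libraries.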

Other observations

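Acute-phase genes, which glucocorticoids and cytokines induce together in liver, divided the libraries in another way than the members did. Of 18 tested, 3 had positive and 15 negative fold changes, with a median of -0.18 (0.07 without NcoR1ΔHep 1, 0.02 without NcoR1ΔHep 3, 0.46 without flox 3 and -0.54 without NcoR1ΔHep 2). In edgeR 0 passed, and 1 had an unadjusted p under 0.05 (3.35% of all tested genes, in either direction). Saa1, which encodes a serum amyloid A protein, was at 20.7, 2092 and 64.4 FPKM in NcoR1ΔHep 1, 2 and 3, and at 129, 61.1 and 2427 FPKM in flox 1, 2 and 3. It was thus high in 1 library of each genotype. Orm3, an orosomucoid, was at 8.67, 0.549 and 0.818 FPKM in NcoR1ΔHep and 0.751, 0.459 and 0.912 FPKM in flox. Serpina3n was at 93.5, 203 and 127 FPKM in NcoR1ΔHep and 170, 160 and 255 FPKM in flox, and the fibrinogen gene Fgg at 1326, 2656 and 1714 FPKM in NcoR1ΔHep and 2735, 2104 and 2826 FPKM in flox.

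Immediate early genes had their highest mean levels in NcoR1ΔHep 1, NcoR1ΔHep 2 and flox 3, the 3 libraries highest for Zbtb16. Fos was at 4.83, 10.6 and 1.98 FPKM in NcoR1ΔHep and 1.20, 0.320 and 16.3 FPKM in flox, and Egr1 at 63.8, 184 and 12.0 FPKM in NcoR1ΔHep and 40.4, 15.9 and 107 FPKM in flox. Zfp36 was at 162, 157 and 42.2 FPKM in NcoR1ΔHep and 57.3, 38.7 and 96.3 FPKM in flox, and Junb at 58.3, 58.6 and 13.5 FPKM in NcoR1ΔHep and 21.3, 11.4 and 33.6 FPKM in flox.

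Markers of other cells gave no call in edgeR. Their median log2 fold changes are followed by the range when single libraries were left out. Hepatocyte markers had positive fold changes in 6 of 10 (median 0.07, range -0.06 to 0.23) and Kupffer cell markers in 2 of 10 (median -0.32, range -0.55 to -0.06). Stellate cell markers had them in 9 of 10 (median 0.09, range 0.02 to 0.33) and cholangiocyte markers in 3 of 5 (median 0.41, range -0.14 to 0.80). For neutrophils it was 0 of 3 (median -0.21, range -0.74 to 1.29), for T, NK and B cells 7 of 9 (median 0.18, range -0.27 to 0.44), and for erythroid cells 2 of 5 (median -0.48, range -0.56 to -0.27). The medians of hepatocyte, cholangiocyte, neutrophil, and T, NK and B cell markers thus changed sign with 1 library left out. Under other settings the neutrophil median ran from -0.25 to 0.61 and that of T, NK and B cells from -0.27 to 0.35.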
